A study of Mus musculus with 10 samples.

Results

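Purinergic and adenosine signalling was followed through 10 genes of the mouse spinal cord, namely the ATP-gated channels *P2rx4* and *P2rx7*, the nucleotide receptors *P2ry1* and *P2ry6*, the surface enzymes *Entpd1* and *Nt5e*, the adenosine receptors *Adora1*, *Adora2a* and *Adora3*, and the adenosine kinase gene *Adk*. The genes were taken by symbol, and all 10 were found among the 25232 genes of the deposited table. RNA came from the spinal cord of 5 WT and 5 SOD1-G93A female mice, labelled as strain C57BL/6, at 90 days of age, and the methods name the lumbar region. The WT mice were littermates, and the SOD1-G93A mice carried a human *SOD1* transgene with the G93A mutation in a high copy number, in a line kept on a C57BL/6J background. The only measurement used here was the base mean, which is the authors' mean over all 10 libraries of the gene counts divided by size factors. It pools both genotypes, so the levels below describe the spinal cord over WT and SOD1-G93A mice together and give no difference between them. Values of single mice were not analysed here, and no spread between mice stands beside a level.

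Cells release ATP and other nucleotides when they are active, stressed or damaged. Extracellular ATP opens P2X channels, while ADP, UDP and related nucleotides act on the G protein-coupled P2Y receptors. Surface enzymes cut ATP down to AMP and then to adenosine, which acts on its own G protein-coupled receptors until it is taken up and returned to AMP by adenosine kinase. In the spinal cord these steps are shared between neurons, astrocytes and microglia, and several of the receptors are studied in microglia and in pain. In a whole tissue, fewer cells of a type and less RNA per cell cannot be told apart.

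The base means of all genes summed to 22158933, which is the mean total of normalised counts per library, and 4259 genes were listed at 0. The microglial markers *Tmem119*, *Cx3cr1* and *Csf1r* had base means of 480, 1278 and 3041, and the 5 astrocyte, 5 oligodendrocyte and 4 neuronal markers lay between 1944 (*Aldh1l1*) and 319615 (*Mbp*). Markers of motor neurons lay between 37.3 (*Mnx1*) and 1170 (*Slc18a3*), those of oligodendrocyte precursors between 755 and 1338, and those of vessels between 631 and 2851. The 9 *Hox* genes of spinal levels lay between 6.27 (*Hoxc13*) and 1358 (*Hoxc8*), with *Hoxc6* (437) and *Hoxc9* (161) of more rostral levels and *Hoxc10* (489) and *Hoxd10* (152) of lumbar levels in this range, and *Neurod6*, a forebrain gene, had a base mean of 78.9. Markers of other tissues had base means of 484 for *Prx* of Schwann cells, 655 for *Dcn* of fibroblasts, 251 for *Acta1* of muscle, 76.8 for *Mrc1* of border macrophages and 71.7 for *Avil* of sensory ganglia. The 3 T cell markers were at 2.73 or below, and the globin genes *Hba-a1* and *Hbb-bs* were listed at 0 beside 137 for *Alas2*. Of the 4 Y-linked genes, 3 were listed at 0 and *Eif2s3y* had 0.212, in libraries labelled female. The part of these other cells in the levels below was not tested.

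The 10 genes covered a wide range of levels. To compare genes, the base mean was divided by the length of the merged exons in kilobases, and a gene's percentile is the share of 20360 genes above 0 that had a lower level per kilobase. The level per kilobase ran from 2.38 for *Adora3* to 1087.5 for *Adora1*, a 456-fold range. The median of the 10 genes was 63.8 per kilobase and the median of the 20360 genes was 63.5, with 5 of the 10 genes above it and 5 below. The base mean reached at least 10 for 9 of the 10 genes, and *Adora3* (8.89) was the exception. Among the 20360 genes above 0, 22.8% had a lower base mean than *Adora3*, so most genes also lay above it. Together the 10 genes held 0.0444% of all normalised counts.

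**Figure D1:**
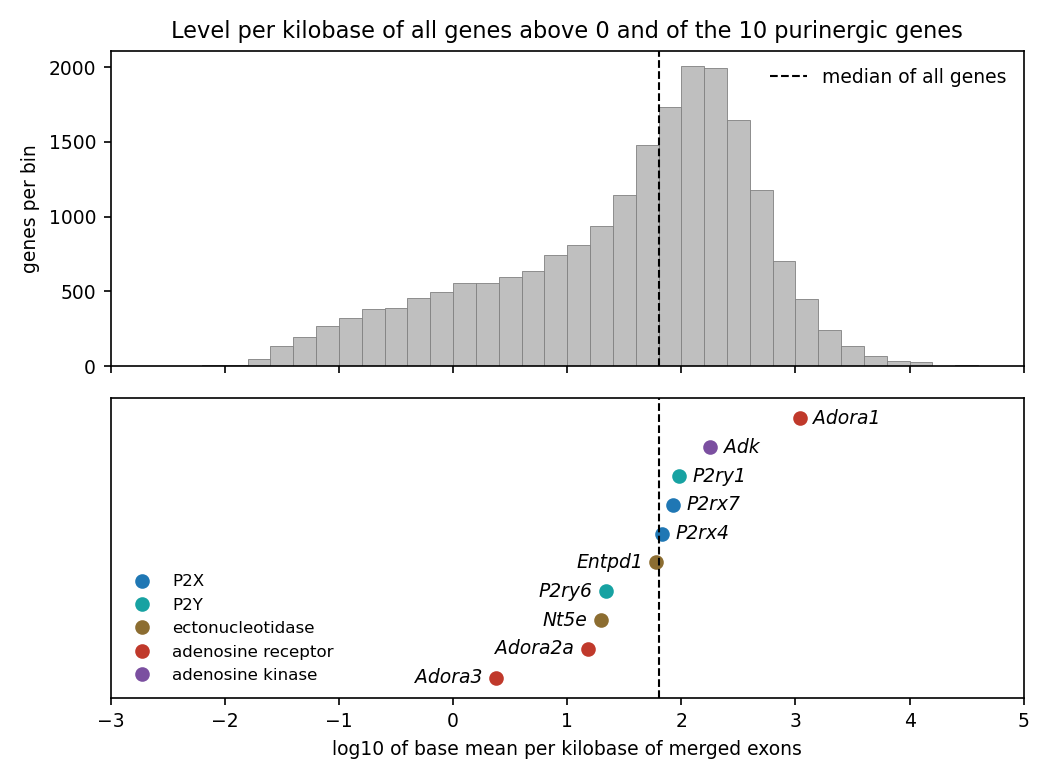
The upper panel plots the number of genes by the log10 of the base mean per kilobase of merged exons, for the 20360 genes above 0, and the lower panel plots the 10 purinergic genes on the same axis, coloured by role. Each point is the authors' mean over all libraries divided by length, without an error. The dashed line is the median of the 20360 genes above 0, with *Adora1* at 1087.5 far to its right and *Adora3* at 2.38 far to its left.

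Among the adenosine receptors, *Adora1* was by far the most abundant. *Adora1*, the inhibitory A1 receptor that dampens transmitter release, lies on chromosome 1 of GRCm38 from 134199223 to 134235431 on the minus strand. Its base mean was 6291, and its level of 1087.5 per kilobase stood at percentile 95.8. *Adora2a*, a stimulatory adenosine receptor known from the striatum, lies on chromosome 10 from 75316877 to 75334784, with a base mean of 46.2 and 15.1 per kilobase, at percentile 31.9. *Adora3*, the inhibitory A3 receptor, lies on chromosome 3 from 105870858 to 105908926, with a base mean of 8.89 and 2.38 per kilobase, at percentile 18.4. The 10 libraries together thus held 88.9 normalised counts of *Adora3*, against 62912 of *Adora1*. *Adora2b*, the remaining receptor of the family, had a base mean of 184 and 99.9 per kilobase.

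Per kilobase of merged exons, *Adora1* was 10.9-fold above *Adora2b*, 72.1-fold above *Adora2a* and 456-fold above *Adora3*. With the coding length these ratios were 34.8-fold, 171-fold and 692-fold. *Adora1* made up 90.3% of the summed level of the 4 adenosine receptors, *Adora2b* 8.29%, *Adora2a* 1.25% and *Adora3* 0.198%. The share of *Adora1* was 91.2% with the length of the longest transcript and 96.5% with the coding length. Of the exonic bases of *Adora1*, 1162 (20.1%) are also exonic on the opposite strand in *Mybph*, a gene of a muscle myosin-binding protein with a base mean of 1303, and the strand setting of the counting is not given in the sources used here. *Adora3* shares 779 exonic bases (20.9%) on its own strand with *Tmigd3* (base mean 2.79), so that reads there could not be assigned to one of the genes by position.

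The promoters of the highest and the lowest gene are shown because they stood at opposite ends of level and differed in CpG number. The runs are the 250 bases before the RefSeq start on GRCm38.p6, read 5′ to 3′ on the gene's strand, with CpG dinucleotides in capitals. The *Adora1* window is chr1:134235458-134235707 on the minus strand and holds 19 CpG. The *Adora3* window is chr3:105904171-105904420 on the plus strand and holds 0 CpG. It lies inside the longer GENCODE gene model given above.
Adora1: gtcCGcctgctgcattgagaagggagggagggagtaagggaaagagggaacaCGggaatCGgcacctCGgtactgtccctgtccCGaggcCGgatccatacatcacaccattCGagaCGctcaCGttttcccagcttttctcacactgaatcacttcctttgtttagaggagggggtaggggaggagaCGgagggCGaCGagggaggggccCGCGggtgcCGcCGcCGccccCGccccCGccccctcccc
Adora3: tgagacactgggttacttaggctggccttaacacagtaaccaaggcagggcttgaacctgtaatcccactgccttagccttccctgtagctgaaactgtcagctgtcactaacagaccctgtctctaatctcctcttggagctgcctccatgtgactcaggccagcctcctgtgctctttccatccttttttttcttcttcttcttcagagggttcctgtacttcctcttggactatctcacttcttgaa

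*P2rx4* and *P2rx7* lay in the middle of the 7 P2X channels, whose levels per kilobase of merged exons ran from 2.61 to 162. *P2rx7*, the channel opened by high ATP that leads to inflammasome activation in macrophages and microglia, had a base mean of 504 and 84.4 per kilobase, at percentile 55.1. *P2rx4*, a channel that opens at low ATP and is known from microglia in neuropathic pain, had a base mean of 471 and 67.1 per kilobase, at percentile 50.9. Both lie on chromosome 5 of GRCm38 on the plus strand, *P2rx7* from 122643911 to 122691432 and *P2rx4* from 122707544 to 122729738, with 16111 bases between them. Their order was not settled, since *P2rx7* was 1.26-fold above *P2rx4* per kilobase of merged exons, 0.844 times its level with the longest transcript and 0.697 times with the coding length. The longest annotated transcript has 1 exon for *P2rx4* and 13 for *P2rx7*, so the lengths may not be of like transcripts.

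The highest P2X levels per kilobase of merged exons were those of *P2rx5* (162) and *P2rx6* (115). *P2rx3*, a channel of sensory neurons, had 40.5 per kilobase, *P2rx2* 5.30 and *P2rx1*, known from smooth muscle and platelets, 2.61. *P2rx7* contributed 17.7% and *P2rx4* 14.1% of the summed level of the 7 channels. With the coding length the shares were 19.1% and 27.45%, and *P2rx4* was then the highest of the 7 at 405 per kilobase. The promoters of the neighbouring channels differed in CpG number, with 6 in the window of *P2rx7* (chr5:122643677-122643926, plus strand) and 13 in that of *P2rx4* (chr5:122707294-122707543, plus strand). They are shown in the same form, as the start regions of a gene pair that stands side by side at similar levels.
P2rx7: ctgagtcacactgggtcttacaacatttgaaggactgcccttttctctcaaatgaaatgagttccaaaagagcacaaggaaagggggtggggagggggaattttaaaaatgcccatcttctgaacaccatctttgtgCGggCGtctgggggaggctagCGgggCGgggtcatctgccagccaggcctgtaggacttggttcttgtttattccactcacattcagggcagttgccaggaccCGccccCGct
P2rx4: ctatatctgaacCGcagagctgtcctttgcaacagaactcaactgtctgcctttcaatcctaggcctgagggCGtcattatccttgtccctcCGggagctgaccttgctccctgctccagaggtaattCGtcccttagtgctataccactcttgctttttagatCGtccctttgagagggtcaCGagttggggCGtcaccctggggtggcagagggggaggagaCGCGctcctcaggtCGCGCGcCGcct

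Of the P2Y receptors, *P2ry1* was at a middle level and *P2ry6* lower. *P2ry1*, the ADP receptor that drives calcium signals in astrocytes and platelets, lies on chromosome 3 from 61002795 to 61008982, with a base mean of 408 and 95.2 per kilobase, at percentile 57.5. *P2ry6*, the UDP receptor linked to phagocytosis by microglia, lies on chromosome 7 from 100937630 to 100974649 on the minus strand, with a base mean of 62.8 and 21.7 per kilobase, at percentile 35.5. *P2ry1* was 4.38-fold above *P2ry6*, and between 3.26-fold and 5.72-fold under the 3 lengths. An antisense gene, *Gm37035*, shares 992 exonic bases (23.1%) with *P2ry1*.

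*P2ry12*, the ADP receptor that marks homeostatic microglia, was the highest of the 8 genes listed as P2Y, at 229 per kilobase. It stood 2.41-fold above *P2ry1* and 10.5-fold above *P2ry6* per kilobase of merged exons, against 1.53-fold and 8.78-fold with the coding length. It made up 50.7% of the summed P2Y level, against 21.1% for *P2ry1* and 4.81% for *P2ry6*. *P2ry13*, a further ADP receptor, had 92.1 per kilobase, close to *P2ry1*. *P2ry2*, the neighbour of *P2ry6* on chromosome 7 with 21918 bases between them, had 7.86 per kilobase, and *P2ry14*, a receptor for UDP-glucose, had 5.35. *P2ry4* and *P2ry10* were at the lowest levels of the list, with a base mean of 0.876 and 0.884. Whether each gene listed as P2Y responds to nucleotides was not tested.

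Both surface enzymes of the classical route from ATP to adenosine were at or below the middle of the genes above 0. *Entpd1*, which encodes CD39 and cuts ATP and ADP to AMP, lies on chromosome 19 from 40612366 to 40741602, with a base mean of 338 and 60.6 per kilobase, at percentile 49.1. *Nt5e*, which encodes CD73 and turns AMP into adenosine, lies on chromosome 9 from 88327197 to 88372092, with a base mean of 170 and 19.7 per kilobase, at percentile 34.5. Among all matched genes the percentiles were 57.4 for *Entpd1* and 45.2 for *Nt5e*. They were 33.9 and 15.8 among genes at a base mean of 10 or more. *Entpd1* was 3.07-fold above *Nt5e* per kilobase of merged exons and 1.88-fold with the longest transcript. The start of *Entpd1* lies 132 bases from that of *Tctn3* (base mean 473), which is read in the other direction.

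Several other enzymes that act on nucleotides were higher than both. *Entpd3* had 347 per kilobase and *Entpd2* 202, which was 5.73-fold and 3.33-fold above *Entpd1*. With the coding length these ratios were 3.93-fold and 1.38-fold. *Entpd5* (308) and *Entpd6* (252), whose products act inside the cell or are secreted, were also above it. *Alpl*, the tissue-nonspecific alkaline phosphatase that can also make adenosine from AMP, had 82.2 per kilobase, 4.16-fold above *Nt5e*, or 2.15-fold with the coding length. *Enpp2* had the highest level of the family at 2496 per kilobase, and it encodes autotaxin, which is known for making lysophosphatidic acid rather than for clearing ATP. *Entpd8* was the lowest at 0.184 per kilobase, and *Entpd4* was not matched in the table by its symbol.

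*Adk* was the member with the next highest level after *Adora1*. It encodes adenosine kinase, which clears adenosine inside the cell, mainly in astrocytes of the adult central nervous system. *Adk* lies on chromosome 14 from 21052574 to 21448569, with a base mean of 1529 and 179 per kilobase, at percentile 71.1. *Ada*, whose enzyme removes adenosine by turning it into inosine, had a base mean of 46.9 and 23.4 per kilobase, so that *Adk* was 7.65-fold higher. That ratio lay between 7.65-fold and 31.8-fold under the 3 lengths. *Adora1* stood 6.07-fold above *Adk*, and between 3.52-fold and 6.07-fold under the 3 lengths. The start of *Adk* lies 65 bases from that of *Ap3m1* (base mean 1457), which is read in the other direction.

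Around *Adk*, the other genes of adenosine and AMP handling were *Ampd2* (494 per kilobase of merged exons), *Ahcy* (199), *Ampd3* (185), *Nt5c2* (167) and *Pnp* (88.8). The place of *Adk* among the 7 genes of adenosine metabolism depended on the length. With the coding length *Adk* was the highest at 1411 per kilobase, before *Nt5c2* (1047) and *Ampd2* (1045). Among the genes listed for nucleoside transport, the equilibrative genes *Slc29a1* to *Slc29a4* lay between 118 and 373 per kilobase of merged exons, with *Slc29a4* highest. With the coding length *Slc29a3* (777) was above *Slc29a4* (674). The concentrative genes *Slc28a1*, *Slc28a2* and *Slc28a3* were at 1.02, 1.60 and 0.150 per kilobase. Of the genes listed for ATP release, *Panx2* had 1280 per kilobase, *Panx1* 44.3, *Slc17a9*, the vesicular nucleotide transporter gene, 4.01, and *Panx3* 0.0777. Release of ATP was not measured.

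**Figure D2:**
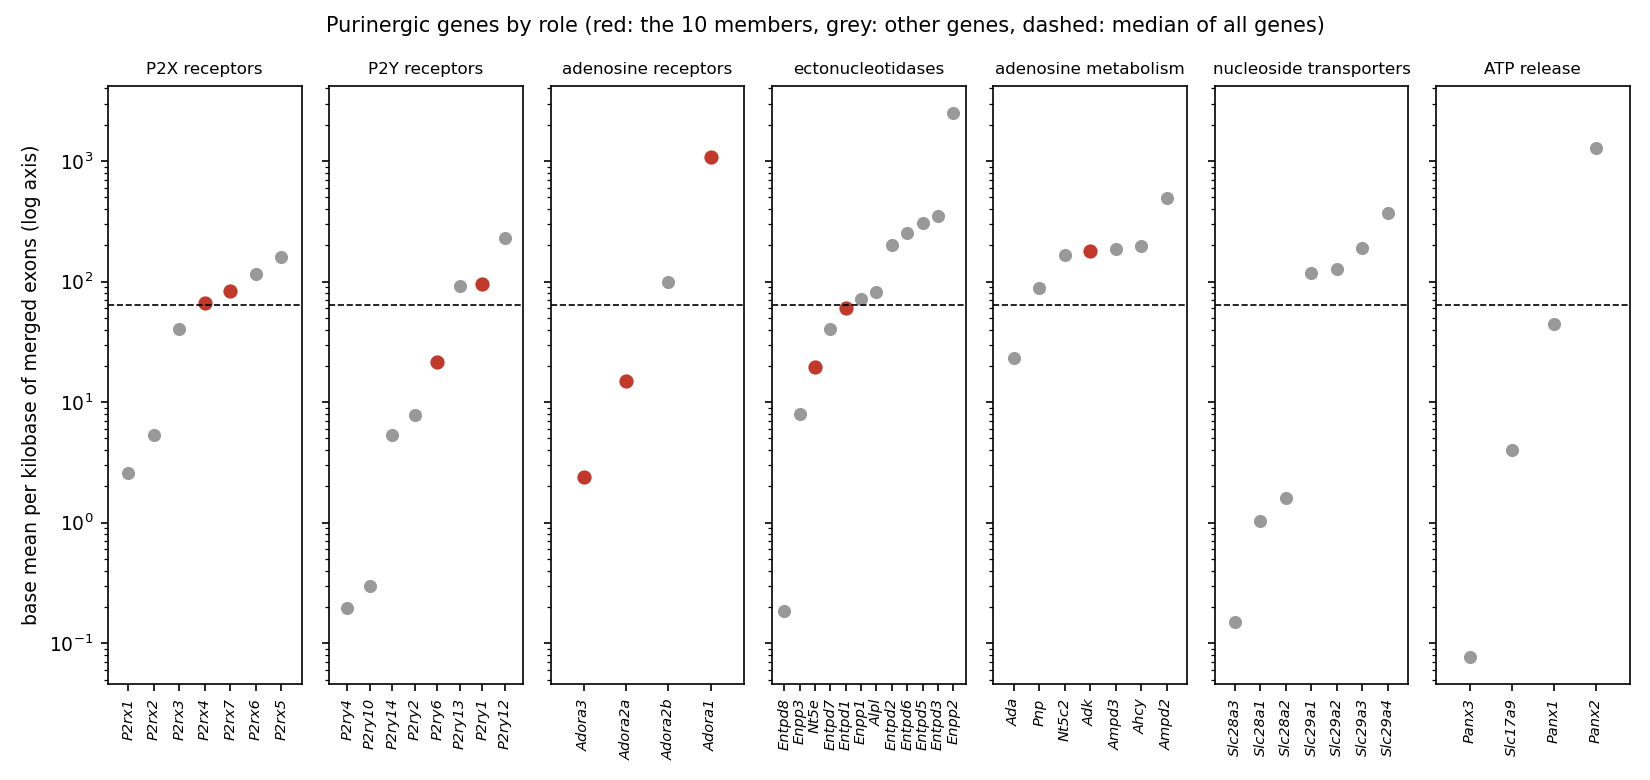
Each point is the base mean per kilobase of merged exons on a log axis, for 49 genes of the wider purinergic list. The 7 panels are by role, in rising order within each panel. Members are in red, the other genes in grey, and the dashed line is the median of the genes above 0. *Adora1* at 1087.5 tops its panel, *Adk* at 179 lies in the middle of its panel, and *P2rx4*, *P2rx7*, *Entpd1* and *P2ry1* lie near the dashed line.

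Over the wider list of 50 genes, 49 were found and 40 had a base mean of at least 10. That was 6 of 7 P2X, 6 of 8 P2Y and 3 of 4 adenosine receptor genes, 11 of 12 ectonucleotidase genes found, all 7 genes of adenosine metabolism, 4 of 7 transporters and 3 of 4 release genes. The median of the 49 genes was 82.2 per kilobase, beside 63.5 for the 20360 genes above 0. The genes under 10 were *Adora3*, *P2rx1*, *P2ry4*, *P2ry10*, *Entpd8*, *Panx3* and the 3 concentrative transporters. As a background, 22.8% of the 20360 genes above 0 had a lower base mean than *Adora3* (8.89). The counts at 10 were not tested against that share.

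The order of the 10 members depended little on the length. From the top by merged exons it was *Adora1*, *Adk*, *P2ry1*, *P2rx7*, *P2rx4*, *Entpd1*, *P2ry6*, *Nt5e*, *Adora2a* and *Adora3*. Of the 45 pairs of members, 42 kept their order with all 3 lengths. The 3 pairs that turned were *P2ry1* and *P2rx4*, *P2rx7* and *P2rx4*, and *P2ry6* and *Nt5e*. *P2ry1* was 1.03-fold to 1.29-fold above *P2rx7* under the 3 lengths, but 0.811 times its level without a length. Without a spread between mice, no neighbours in this order were tested against each other.

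**Figure D3:**
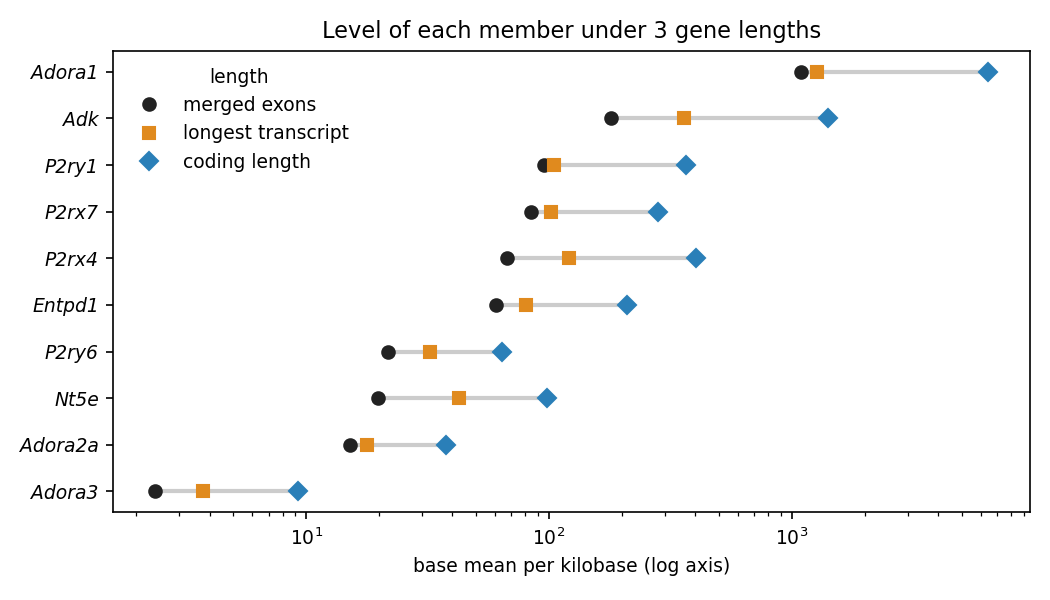
The base mean per kilobase of each of the 10 members is plotted on a log axis, with the length taken as merged exons (circles), the longest transcript (squares) or the coding length (diamonds) and a grey line joining the 3. *Adora1* (1087.5 to 6433) stays above every other member and *Adora3* (2.38 to 9.29) below every other, while *P2ry1*, *P2rx7* and *P2rx4* lie close together.

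The RefSeq table held a start region for 8 of the 10 members, and *Adora2a* and *P2ry6* had no entry. The first start of each gene was taken where it has several. The number of CpG in the 250 bases before the start was 21 for *Nt5e*, 20 for *P2ry1*, 19 for *Adora1*, 18 for *Entpd1*, 15 for *Adk*, 13 for *P2rx4*, 6 for *P2rx7* and 0 for *Adora3*. Their median was 16.5, and the median over the start regions of 27024 genes was 6. Those 27024 include genes not above 0 here, so the 2 medians are not of like sets. Among genes above 0 with a start region, 3822 had 0 to 4 CpG and 2658 had 5 to 9. A further 4831 had 10 to 19, 2877 had 20 to 29 and 1296 had 30 or more. The letters TATAAA occurred on either strand in 0 of the 8 regions and in 12.98% of the 27024. With 8 regions, no difference can be read from this, and the share among genes above 0 was not taken.

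Across all genes above 0 with a start region, the median level per kilobase was 2.70 for 3822 genes with 0 to 4 CpG and 121 for 4831 genes with 10 to 19 CpG. *Adora3* lay close to the median of the first of these classes. *Adora1* was far above the upper quartile of its own class, which was 297. *Nt5e*, with the most CpG of the 8, was below the lower quartile of its class, which was 54.9. The *Nt5e* window (chr9:88327359-88327608, plus strand) lies inside the longer GENCODE gene model, which starts at 88327197.

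**Figure D4:**
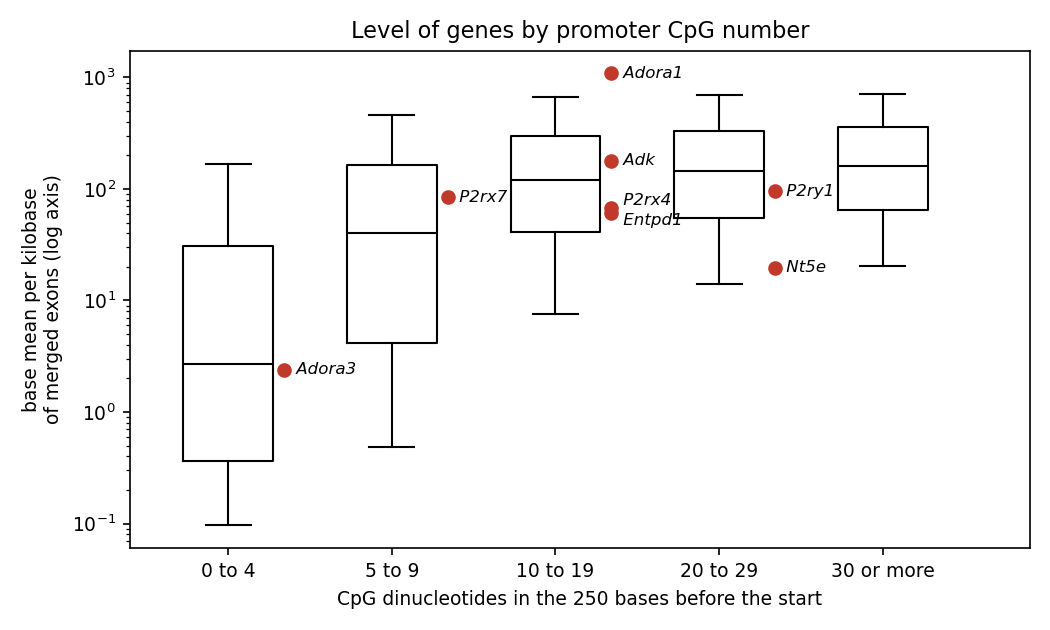
Boxes show the base mean per kilobase of merged exons on a log axis (median, quartiles, whiskers to percentiles 10 and 90). They hold all genes above 0 with a start region, in classes of the number of CpG dinucleotides in the 250 bases before the start. Red points are the 8 members with an entry. The medians rise from 2.70 in the lowest class to 161 in the highest, *Adora1* lies above the whisker of its class and *Nt5e* (19.7) in the lower part of its own.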

How the data were processed

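According to the labels and the methods, libraries of 5 WT and 5 SOD1-G93A mice were stranded, reads were filtered with Fastp, aligned to mm10 with HISAT2 2.1.0 and counted with featureCounts 2.0.2, using uniquely mapped reads. The annotation and the strand setting are not given in the sources used here. The deposited base mean was treated as a signal, namely the mean that the authors took with DESeq2 over all libraries of counts divided by size factors. The other 5 value columns hold the outcome of the authors' comparison of the genotypes (log2 fold change, standard error, Wald statistic, p-value and adjusted p-value) and were not used, so no test was made. Precision is limited by the number of counts, and the depth of single libraries is unknown.

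Symbols were matched to GENCODE M21 (GRCm38, the build mm10 denotes), with a unique match for 24312 of 25232 genes (96.4%). Base means were divided by the length of merged exons. The longest transcript, the coding length or no length, other sets of genes for the percentiles, other minimum levels and looser symbol matching were the alternatives. The longest annotated transcript has 1 exon for *P2rx4* and 3 for *Adk*, and whether it is the main transcript of a gene was not tested. Start regions were taken from RefSeq. All 10 members are named. Of a wider list by role (P2X, P2Y, adenosine receptors, ectonucleotidases, adenosine metabolism, transport, ATP release), all genes are counted, and the highest, the lowest and relatives of members are named. Members and lists were chosen with earlier results of these data known. The length arithmetic was tested on simulated data. Python 3.11.15, numpy 2.4.6, pandas 2.3.3 and matplotlib 3.10.9 were used. Some marker genes are not reported here.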

Additional observations from a re-analysis of the deposited data

How the results depend on the processing

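The median level per kilobase of the 10 genes was 63.8 with merged exons, 91.0 with the longest transcript and 246 with the coding length, and the median base mean without a length was 373. Of the 45 pairs of members, 42 were ordered as with merged exons under each of these 3 alternatives. The pairs that turned were not the same, since without a length *P2ry1* and *P2rx7* turned and *P2rx7* and *P2rx4* did not. The median percentile of the 10 genes was 49.9975 among genes above 0, 35.1 among genes at a base mean of 10 or more and 58.1 among all matched genes. Of the wider list, 40 genes reached a base mean of 10, 43 reached 5 and 34 reached 50. The shares of all genes that reached 5 or 50 are not given here. No difference of the list from all genes can therefore be read from these counts. All 10 members were found by exact symbol, with upper and lower case ignored and with synonyms. Leaving out a library was not possible, and no paired analysis was possible because the base mean pools all libraries. Genes with few counts, such as *Adora3*, are the least precise.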
